A study of Mus musculus with 18 samples.

Results

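Genes that mark conventional and immature thymocytes were followed across purified invariant natural killer T (iNKT) cells of the mouse thymus: Cd4, Cd8a, Cd8b1, Igfbp4, Dntt, Rag1 and Cd24a. A gene was read from the array probe set that carried its symbol alone, or from the brightest of them where there were several. By this rule 6 of the 7 genes were measured. Rag1 appears in the array annotation only on a probe set that it shares with Iftap, so its level was not measured here. Of the 13034 genes that were bright enough to be tested, 5 belong to this set: Igfbp4, Cd4, Cd8b1, Dntt and Cd24a. Cd8a was too dim for the test and is given by its values. The members and the gene lists used below were chosen as a check of the sorted populations.

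The Mst1KO mice carried Cd4Cre and Mst1fl/fl alleles, so Cre under Cd4 regulatory sequences removes Stk4 (the MST1 gene of the Hippo pathway) from cells that have switched on Cd4, as thymocytes do before the iNKT lineage branches off. The other mice were labelled WT, and the labels do not say whether they carried Cre or the floxed allele. Cells of C57BL/6 thymus that bound the CD1d tetramer and the TCRb antibody and lacked CD24 were sorted into S1, which carries neither CD44 nor NK1.1, S2, which carries CD44 alone, and S3, which carries both. There were 3 arrays for each of the 6 groups, Mst1KO S1, WT S1, Mst1KO S2, WT S2, Mst1KO S3 and WT S3, and that small number bounds the precision. The design counts 3 mice of each genotype. Nothing in the labels ties a replicate number to a mouse, so the p-values reflect only the spread between these samples, part of which may be technical. Before the sort the thymocytes passed over CD8 microbeads in a step that the labels call positive selection, so how much CD8-bearing material reached the sort is uncertain.

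CD4 and CD8 are coreceptors: CD4 binds MHC class II, CD8 binds MHC class I, and both bring the kinase Lck to the T cell receptor. Double-positive thymocytes carry both, express the recombinase genes Rag1 and Rag2, and display much CD24 on their surface. Conventional cells then keep 1 coreceptor and lose CD24 as they mature. iNKT cells arise from double-positive thymocytes that are selected on CD1d, and in the mouse they keep CD4 or lose both coreceptors, while CD8-bearing iNKT cells are rare.

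Values are log2 expression per probe set. The median of all probe sets lay between 4.81 and 4.93 on the 18 arrays and serves here as the mark of a dim gene. Group levels are means ± SD (n = 3 arrays), and differences are log2 differences ± SE from a limma fit across all genes. A gene is called changed at a Benjamini-Hochberg adjusted p under 0.05 over all 13034 genes. Within groups, arrays correlated at r = 0.976 to 0.986 across probe sets. The labels were checked with genes of the lineage and the gates. Zbtb16, which encodes the iNKT lineage factor PLZF, lay between 10.15 and 11.77 in the 6 group means. Its S3 minus S1 difference was -1.19 ± 0.12 in Mst1KO (adjusted p = 7.98e-07) and -1.62 ± 0.12 in WT (adjusted p = 1.49e-08). At S3 the Mst1KO minus WT difference of Zbtb16 was 0.42 ± 0.12 and was not called (adjusted p = 0.0619). Klrb1c, the NK1.1 gene, averaged 8.78 ± 0.07 in Mst1KO S3 and 8.51 ± 0.13 in WT S3, against 2.90 ± 0.13 in Mst1KO S1 and 3.08 ± 0.56 in WT S1. At S2, which was sorted without NK1.1, it lay between, at 4.94 ± 0.44 in Mst1KO and 5.27 ± 0.26 in WT. It passed the median there on 1 of 3 Mst1KO arrays and 3 of 3 WT arrays. Cd44 averaged 5.66 ± 0.32 in Mst1KO S1 and 5.53 ± 0.03 in WT S1. Its means were 7.74 ± 0.08 in Mst1KO S2, 7.49 ± 0.19 in WT S2, 8.40 ± 0.12 in Mst1KO S3 and 8.04 ± 0.08 in WT S3. Stk4 was lower in Mst1KO by 0.29, 0.35 and 0.39 on the log2 scale at S1, S2 and S3 without being called (adjusted p = 0.34, 0.173 and 0.0767).

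RefSeq promoter windows were given for 4 of the 7 genes (Rag1, Cd8a, Igfbp4 and Dntt). The windows of Igfbp4 and Dntt are printed because these 2 are the tested genes that have one, and they differ in where they were brightest, Igfbp4 at S1 and Dntt at S3. Each is the 250 bases before the transcription start in assembly GRCm38.p6, 5′ to 3′ on the gene's strand, at chr11:99040994-99041243 (+) for Igfbp4 and chr19:41029025-41029274 (+) for Dntt. Capitals mark matches on either strand to TATAAA (the TATA box), CTTTGA (the core bound by TCF and LEF factors), TGTGGT (the core bound by RUNX factors) or CANNTG (the E-box, bound by E proteins).
Igfbp4: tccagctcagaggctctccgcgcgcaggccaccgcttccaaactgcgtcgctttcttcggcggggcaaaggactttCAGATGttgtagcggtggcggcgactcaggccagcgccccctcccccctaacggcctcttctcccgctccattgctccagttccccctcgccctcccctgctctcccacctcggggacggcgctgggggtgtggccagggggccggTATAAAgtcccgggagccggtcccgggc
Dntt: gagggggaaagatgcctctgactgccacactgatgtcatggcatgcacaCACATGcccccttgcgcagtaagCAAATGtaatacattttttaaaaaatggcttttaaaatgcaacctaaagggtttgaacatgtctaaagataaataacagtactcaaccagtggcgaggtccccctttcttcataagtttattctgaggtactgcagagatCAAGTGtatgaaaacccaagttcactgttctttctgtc
Igfbp4 holds 1 TATAAA that begins 28 bases before the start and 1 CANNTG that begins 174 bases before it. Dntt holds 3 CANNTG, beginning 201, 178 and 38 bases before the start, and none of the other motifs, and none of the marked matches overlap. Of 32851 windows of the same length, 12.4% hold TATAAA, 13.8% CTTTGA, 14% TGTGGT and 66.2% CANNTG. The Igfbp4 window is 69.2% G or C, above 89.6% of all windows, and the Dntt window is 41.6%, above 14.9% of them, against a median of 52.4%. A match is a string of letters and not a shown binding site. The Igfbp4 window ends at the start that RefSeq's promoter table uses, which lies inside the annotated span of the gene.

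Igfbp4 encodes a secreted protein that binds insulin-like growth factors, and its RNA is abundant in naive conventional T cells. The gene lies on chromosome 11 at 99040005 to 99052655 (GRCm38.p6). Its level at S1 was 9.93, 9.96 and 9.85 in Mst1KO and 9.67, 9.77 and 9.64 in WT. At S2 it was 8.28, 8.73 and 8.76 in Mst1KO and 8.26, 8.67 and 8.27 in WT. At S3 it was 5.69, 5.79 and 5.83 in Mst1KO and 5.76, 6.01 and 5.43 in WT. All 6 arrays of a stage lay below all 6 of the stage before it. Igfbp4 was the member that moved furthest: it was lower at S3 than at S1 by 4.14 ± 0.15 in Mst1KO, which is 17.7-fold (adjusted p = 4.47e-11), and fell by 3.96 ± 0.15 in WT, which is 15.5-fold (adjusted p = 2.09e-11). In Mst1KO this was the lowest p of all 13034 genes, and in WT it ranked 5. Most of the fall came after S2. The S3 minus S2 difference was -2.82 ± 0.15 in Mst1KO (adjusted p = 5.71e-09) and -2.66 ± 0.15 in WT (adjusted p = 3.5e-09). The S2 minus S1 difference was -1.32 ± 0.15 in Mst1KO (adjusted p = 3.48e-05) and -1.30 ± 0.15 in WT (adjusted p = 8.94e-05). These are bulk samples, so fewer cells of a type and less RNA per cell cannot be told apart, here or in any result that follows.

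Between the genotypes Igfbp4 was not called at any stage. At S1 the Mst1KO arrays all lay above the WT arrays, with means of 9.91 ± 0.05 in Mst1KO and 9.69 ± 0.07 in WT, a difference of 0.22 (95% interval -0.10 to 0.54, adjusted p = 0.643). At S2 the difference was 0.19 (-0.13 to 0.51, adjusted p = 0.649) and at S3 0.03 (-0.29 to 0.35, adjusted p = 0.945). In the order of the group means, Mst1KO S1, WT S1, Mst1KO S2, WT S2, Mst1KO S3 and WT S3, the pairs of one stage were not called, and each step to the next stage within a genotype was called.

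**Figure D1:**
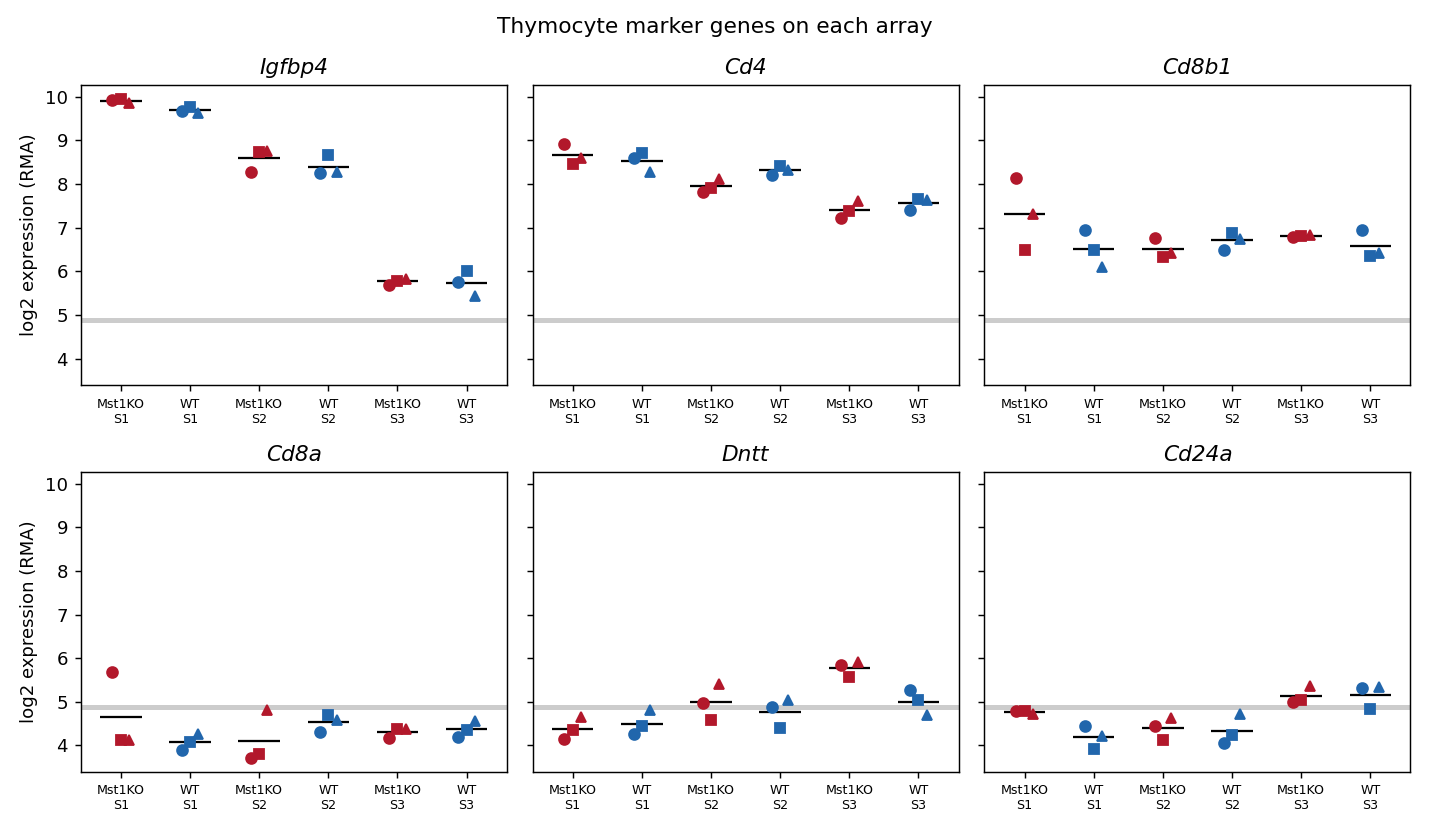
Log2 expression (RMA) of the 6 measured marker genes on each of the 18 arrays, with Mst1KO in red left of WT in blue at each stage. Circles, squares and triangles are replicates 1, 2 and 3, black bars are group means, and the grey band is the range of the array medians (4.81 to 4.93). Igfbp4 steps down at S2 and again at S3 in both genotypes, while the Cd8a array at 5.69 and the Cd8b1 array at 8.14 are the same array, Mst1KO S1 replicate 1.

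Cd4, on chromosome 6 at 124864693 to 124888247, was expressed on all arrays and declined along the stages in both genotypes. At S1 it stood at 8.93, 8.46 and 8.60 in Mst1KO and at 8.59, 8.72 and 8.27 in WT. At S2 it stood at 7.83, 7.91 and 8.12 in Mst1KO and at 8.20, 8.42 and 8.32 in WT. At S3 it stood at 7.23, 7.38 and 7.61 in Mst1KO and at 7.41, 7.65 and 7.64 in WT. S3 arrays lay below S1 arrays in each genotype without overlap. The S3 minus S1 difference was -1.25 ± 0.14 in Mst1KO, 2.39-fold lower (adjusted p = 5.15e-06), and -0.96 ± 0.14 in WT, 1.95-fold lower (adjusted p = 5.78e-05). In Mst1KO both steps were called, with -0.71 ± 0.14 at S2 minus S1 (adjusted p = 0.00587) and -0.55 ± 0.14 at S3 minus S2 (adjusted p = 0.014). In WT the step to S2 was -0.22 ± 0.14 (adjusted p = 0.497) and the step to S3 -0.74 ± 0.14 (adjusted p = 0.00109). The call of the Mst1KO step to S3 is lost without Mst1KO S3 replicate 1 (-0.46, adjusted p = 0.0753) or Mst1KO S2 replicate 3 (-0.46, adjusted p = 0.0676).

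The earlier step in one genotype was not shown to differ from the other. The Mst1KO minus WT difference in the S1 to S2 change of Cd4 was -0.49 ± 0.20 with an adjusted p of 0.675. At S2 itself the groups did not overlap, with means of 7.95 ± 0.15 in Mst1KO and 8.31 ± 0.11 in WT, yet the difference of -0.35 (95% interval -0.66 to -0.05) had an adjusted p of 0.28. At S1 it was 0.13 (-0.17 to 0.44, adjusted p = 0.789) and at S3 -0.16 (-0.47 to 0.15, adjusted p = 0.641). Ordered by mean, Cd4 ran Mst1KO S1, WT S1, WT S2, Mst1KO S2, WT S3, Mst1KO S3. WT S1 and WT S2 are neighbours in that order whose difference was not called, and neither was that of the genotypes at any stage.

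Cd8a and Cd8b1 encode the alpha and beta chains of CD8 and are neighbours on chromosome 6, at 71373427 to 71379171 and at 71322788 to 71337492, with 35.9 kb between them. The beta chain reaches the surface only together with the alpha chain. Cd8a lay below the array median on 17 of the 18 arrays. At S1 it read 5.69, 4.12 and 4.13 in Mst1KO and 3.90, 4.09 and 4.26 in WT. At S2 it read 3.71, 3.80 and 4.82 in Mst1KO and 4.30, 4.70 and 4.59 in WT. At S3 it read 4.18, 4.38 and 4.38 in Mst1KO and 4.19, 4.35 and 4.57 in WT. The single array above its median was Mst1KO S1 replicate 1, and without it the Mst1KO S1 mean was 4.12, beside 4.08 in WT S1.

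Cd8b1 was above the array median on all 18 arrays. At S1 it read 8.14, 6.50 and 7.31 in Mst1KO and 6.96, 6.49 and 6.11 in WT. At S2 it read 6.77, 6.33 and 6.43 in Mst1KO and 6.50, 6.88 and 6.75 in WT. At S3 it read 6.78, 6.81 and 6.83 in Mst1KO and 6.94, 6.36 and 6.42 in WT. The widest spread of any group was that of Mst1KO S1, at 7.32 ± 0.82, and its lowest array lay inside the WT S1 range. The Mst1KO minus WT difference at S1 was 0.80 (95% interval 0.16 to 1.43), with an unadjusted p of 0.0172 and an adjusted p of 0.313 in the limma fit. Leaving out Mst1KO S1 replicate 1 brought it to 0.38 (adjusted p = 0.733), and leaving out replicate 2 to 1.20 (adjusted p = 0.0992). It was -0.20 (-0.83 to 0.44, adjusted p = 0.841) at S2 and 0.24 (-0.40 to 0.87, adjusted p = 0.763) at S3. No stage change of Cd8b1 was called in either genotype. Without Mst1KO S1 replicate 2 it was lower in Mst1KO S2 than in Mst1KO S1 (-1.21, adjusted p = 0.0122) and lower in Mst1KO S3 than in Mst1KO S1 (-0.92, adjusted p = 0.0172).

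**Figure D2:**
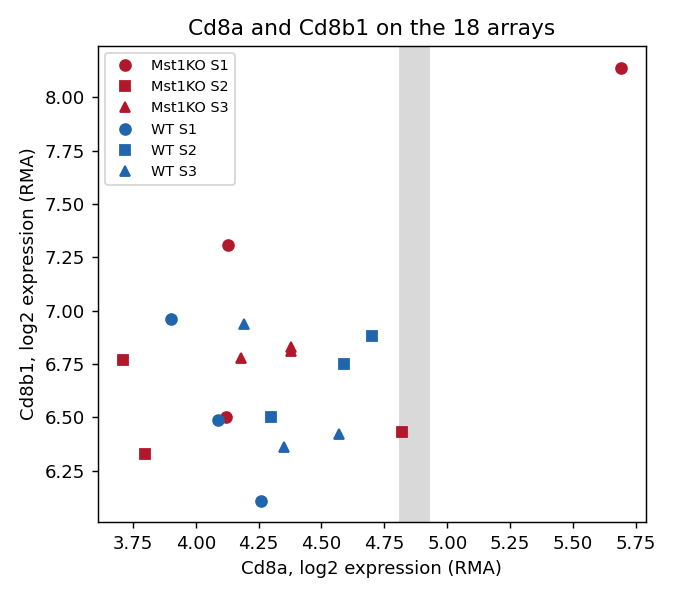
Log2 expression (RMA) of Cd8a (horizontal) and Cd8b1 (vertical) on the 18 arrays, with Mst1KO in red and WT in blue, circles for S1, squares for S2 and triangles for S3, and the range of the array medians as a grey band. Mst1KO S1 replicate 1, at 5.69 and 8.14, stands apart from the other 17 arrays.

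Mst1KO S1 replicate 1 stood apart in both CD8 chains. Against the mean of the other 2 Mst1KO S1 arrays it was higher by 1.57 in Cd8a and by 1.24 in Cd8b1, which ranked 9 among the 13034 tested genes by this difference. The tested genes ranked above Cd8b1 were Gm14057, Rny1, Mir5123, Mir103-2, Capn11, Trav3-4, Zfp992 and Mir5128, with differences of at least 1.27. Cd4 was higher by 0.40 on that array. Other genes of the immature list gave smaller differences: Rag2 differed by -0.17, Dntt by -0.37, Ptcra, which encodes the pre-T alpha chain, by -0.42, Arpp21 by -0.19, Themis by 0.07 and Cd24a by 0.03. Rag2, Dntt, Arpp21 and Cd24a were below the array median in Mst1KO S1, and which cells carried the CD8 signal was not tested. Of the 12 tested genes of the immature list 6 were higher on that array, with a median difference of -0.01, and of the 12 tested genes of the mature conventional list 12 were higher, with a median of 0.08, against -0.02 over all genes. Cd8b1, in which the array stood apart, is counted in both lists. In the mature list Igfbp4, Lef1, Ccr7, Klf2, Il7r and S1pr1 differed by only 0.02 to 0.06 on that array, so the count is a description. Across the 18 arrays Cd8a and Cd8b1 correlated with r = 0.54, and across the 17 arrays without this one with r = -0.10. These correlations describe arrays that share stage and genotype groups.

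Dntt encodes terminal deoxynucleotidyl transferase, which adds untemplated nucleotides to the joints of rearranging receptor genes. Its RNA, from chromosome 19 at 41029275 to 41059525, was dim, with its highest mean in Mst1KO S3. At S1 it read 4.14, 4.36 and 4.66 in Mst1KO and 4.26, 4.44 and 4.81 in WT, all below the array medians. At S2 it read 4.98, 4.59 and 5.41 in Mst1KO and 4.89, 4.39 and 5.05 in WT. At S3 it read 5.84, 5.58 and 5.91 in Mst1KO and 5.27, 5.05 and 4.70 in WT. It was above the median on 9 arrays, none of them S1. It entered the test only through S2 and S3, so its difference from S1 was in part set by the filter and is a description. In Mst1KO the S3 minus S1 difference was 1.39 ± 0.22 (adjusted p = 0.000151) and the S3 minus S2 difference 0.78 ± 0.22 (adjusted p = 0.0214). In WT the S3 minus S1 difference was 0.50 ± 0.22 (adjusted p = 0.0938) and the S3 minus S2 difference 0.23 ± 0.22 (adjusted p = 0.509). The Mst1KO call for S3 minus S2 is lost when any of Mst1KO S2 replicates 1 or 2 or Mst1KO S3 replicates 1 or 3 is left out, with differences of 0.58 to 0.78 and adjusted p of 0.0539 to 0.111.

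At S3 the 3 Mst1KO arrays lay above the 3 WT arrays, with means of 5.78 ± 0.17 in Mst1KO and 5.00 ± 0.28 in WT. The difference of 0.77 ± 0.22 (95% interval 0.30 to 1.24, 1.71-fold) had an unadjusted p of 0.00301 and an adjusted p of 0.0684, so Dntt was not called. It was called with a variance trend and robust fit (0.77, adjusted p = 0.0493). The differences at S1 and S2 were -0.11 (-0.58 to 0.35, adjusted p = 0.896) and 0.22 (-0.25 to 0.69, adjusted p = 0.737), and the Mst1KO minus WT difference in the S2 to S3 change was 0.55 ± 0.31 (adjusted p = 0.538). The recombinase gene Rag2, which works in the same reaction, lay between 3.36 and 3.88 on the 18 arrays and was below the array median on all of them.

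Cd24a, on chromosome 10 at 43579169 to 43584265, encodes the surface protein whose absence was part of the sort. At S1 it read 4.79, 4.80 and 4.71 in Mst1KO and 4.44, 3.93 and 4.21 in WT. At S2 it read 4.44, 4.12 and 4.63 in Mst1KO and 4.05, 4.24 and 4.73 in WT. At S3 it read 4.99, 5.05 and 5.37 in Mst1KO and 5.32, 4.84 and 5.33 in WT. It exceeded the array median on 5 arrays, all of them S3, and so passed the filter only through the stage where it was highest and had to differ from the others. The S3 minus S2 difference was 0.74 ± 0.19 in Mst1KO (adjusted p = 0.0113) and 0.82 ± 0.19 in WT (adjusted p = 0.00405). The S3 minus S1 difference was 0.37 ± 0.19 in Mst1KO (adjusted p = 0.169) and 0.97 ± 0.19 in WT (adjusted p = 0.000654). A dimmer probe set of Cd24a stayed between 3.43 and 4.12 on all arrays. The Mst1KO call is lost without Mst1KO S2 replicate 2 (0.60, adjusted p = 0.0618) or Mst1KO S3 replicate 3 (0.62, adjusted p = 0.0572).

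At S1 the Cd24a arrays of the genotypes did not overlap, with means of 4.77 ± 0.05 in Mst1KO and 4.19 ± 0.25 in WT. The difference of 0.57 (95% interval 0.17 to 0.97) had an unadjusted p of 0.00755 and an adjusted p of 0.233, and all 6 arrays lay below their array medians. It was 0.06 (-0.34 to 0.45, adjusted p = 0.942) at S2 and -0.02 (-0.42 to 0.37, adjusted p = 0.969) at S3.

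Counted together, 0 of the 5 tested markers were called between the genotypes at S1, S2 or S3. At an unadjusted p under 0.05 the limma fit held 2 at S1 (Cd8b1 and Cd24a), 1 at S2 (Cd4) and 1 at S3 (Dntt). Of all 13034 genes, 1457, 1741 and 2176 had such a p at S1, S2 and S3. The called share of all genes was 0.330% at S1, 1.17% at S2 and 3.40% at S3. The genotype counts of the gene lists below stand beside these same values. The Mst1KO minus WT difference in the stage change was called for 0 of the 5, against 0.0153% of all genes from S1 to S2 and 0.368% from S2 to S3. At an unadjusted p under 0.05 the limma fit held 2 markers (Cd4 and Cd8b1) and 0 markers, beside 882 and 1464 of the 13034 genes. Between stages in Mst1KO, 2 of 5 were called for S2 minus S1, where 6.67% of all genes were, 4 of 5 for S3 minus S2, where 17.2% were, and 3 of 5 for S3 minus S1, where 26.6% were. In WT the counts were 1, 3 and 3 of 5, beside 3.84%, 23.6% and 33.8% of all genes. Igfbp4 was called in all 6 of these stage comparisons and Cd8b1 in none. Cd24a passed the filter through S3 alone and Dntt through S2 and S3, so these counts are a description.

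**Figure D3:**
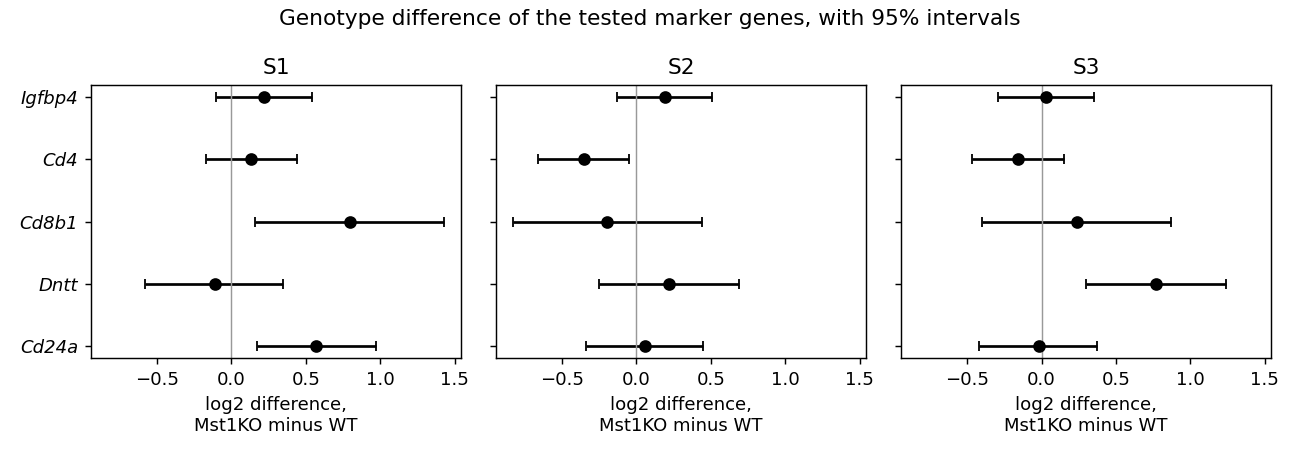
Mst1KO minus WT log2 difference of the 5 tested markers at S1, S2 and S3, with 95% intervals from the limma fit. The interval of Dntt at S3 runs from 0.30 to 1.24 and that of Igfbp4 at S3 from -0.29 to 0.35, and no difference shown has an adjusted p under 0.05.

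Across the 18 arrays Cd4 and Igfbp4 went together (r = 0.92), Dntt ran against both (r = -0.80 with Cd4 and -0.74 with Igfbp4), and Cd24a ran against Igfbp4 (r = -0.71). These values describe arrays that share their stages. The 3 tested genes most like Igfbp4 by Pearson r over the 18 arrays were Ccr7, a lymph node homing receptor (0.988), Tesc (0.985) and Ascc2 (0.976). For Cd4 they were Gm973 (0.956), the ATP receptor gene P2rx7 (0.954) and Gm19765 (0.950). For Dntt they were Cyba, which encodes a subunit of the phagocyte oxidase (0.913), Dguok (0.898) and Mpeg1, a macrophage gene (0.898). Cyba averaged 11.31 ± 0.06 in Mst1KO S3 and 11.13 ± 0.06 in WT S3, and Mpeg1 averaged 5.79 ± 0.18 in Mst1KO S3 and 5.34 ± 0.41 in WT S3. For Cd24a they were Rab11fip4 (0.904), Atg2a (0.894) and Pde2a (0.879). The best match of Cd8b1 was weaker, at 0.739 for the splicing factor gene Prpf38b, then Snord37 (0.716) and Tmem63b (0.696).

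A wider list of immature and double-positive thymocyte genes held 19 genes, of which 16 had a probe set of their own and 12 were tested. Rag2, Arpp21 and Tdrd5 were below the array median on all 18 arrays. From S1 to S3 in Mst1KO 4 of the 12 were called lower and 1, Dntt, higher, with a median difference of -0.27, where 26.6% of all genes were called and their median was -0.009. In WT 5 were called lower and 1, Cd24a, higher, with a median of -0.23, where 33.8% of all genes were called and their median was -0.004. Dntt and Cd24a passed the filter only through later stages. The chemokine receptor gene Ccr9, which marks double-positive and young post-selection thymocytes, averaged 3.46 in Mst1KO S3 and 4.14 in WT S3, where none of its arrays passed the median, and 6.76 in Mst1KO S1 and 7.06 in WT S1. It entered the test only through S1 and S2, so its fall is given as these levels alone. Themis, needed for positive selection, fell by 2.02 ± 0.19 in Mst1KO (adjusted p = 5.35e-07) and by 2.56 ± 0.19 in WT (adjusted p = 2.23e-08). Between the genotypes 0 of the 12 were called by limma at S1 and at S2, with 2 and 3 at an unadjusted p under 0.05. At S3 limma called 2 of the 12 higher and 1 lower in Mst1KO, beside 3.40% of all genes, with 5 at an unadjusted p under 0.05. The median difference of the 12 was -0.14, against 0.01 over all genes. Of the 8 tested genes of the list that are not members, 2 had positive differences. Themis (0.88 ± 0.19, adjusted p = 0.0171) and the chemokine receptor gene Cxcr4 (0.88 ± 0.17, adjusted p = 0.00754) were the 2 called higher in Mst1KO at S3. Ccr9 was called lower there, but all 6 arrays were below their medians. Ptcra averaged 5.38 in Mst1KO S3 and 5.63 in WT S3 and was not called there (adjusted p = 0.396). Of the early progenitor genes 7 of 10 were tested. From S1 to S3 2 of the 7 were called higher in Mst1KO and 3 in WT, and 0 lower, beside 26.6% and 33.8% of all genes called. The interleukin-2 receptor chain gene Il2ra and Notch1 rose in both genotypes (Il2ra by 1.14 ± 0.24 in Mst1KO and 1.04 ± 0.24 in WT, adjusted p = 0.00186 and 0.00282). Dtx1 was called in WT alone. Between the genotypes limma called 0 of the 7 at any stage, with 0, 0 and 1 at an unadjusted p under 0.05 at S1, S2 and S3.

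The mature conventional list, which holds Igfbp4 and Cd8b1, did not move as a block. Of its 12 tested genes 6 fell and 4 rose from S1 to S3 in Mst1KO, with a median of -0.61, beside 26.6% of all genes called. Dapl1, counted among the 6, was below the median on all S3 arrays and entered the test only through S1 and S2. In WT 4 fell and 4 rose, with a median of -0.15, beside 33.8% of all genes. Ccr7 fell with Igfbp4, by 3.44 ± 0.20 in Mst1KO (adjusted p = 3.07e-09) and 3.09 ± 0.20 in WT (adjusted p = 4.48e-09), and so did the transcription factor gene Lef1, by 1.70 ± 0.12 in Mst1KO and 1.60 ± 0.12 in WT. Itm2a rose by 1.44 ± 0.15 in Mst1KO and 1.43 ± 0.15 in WT. The interleukin-7 receptor gene Il7r, Bach2 and Foxp1 rose in both genotypes as well. S1pr1, the receptor for thymic exit, fell by 0.78 ± 0.16 in Mst1KO (adjusted p = 0.00137) and by 2.43 ± 0.16 in WT (adjusted p = 5.39e-09). At S3 it averaged 8.79 in Mst1KO and 6.47 in WT, a difference of 2.32 ± 0.16 (adjusted p = 4.7e-07), and its activator Klf2 was higher by 0.78 ± 0.21 (adjusted p = 0.0478). At S1 0 of the 12 were called between the genotypes in the limma fit, with 6 at an unadjusted p under 0.05, beside 1457 of the 13034 genes. The 10 genes of the list other than Igfbp4 and Cd8b1 all had positive differences there, with a median of 0.32 against 0.01 over all genes. At S2 7 of these 10 had positive differences, with a median of 0.16, and at S3 5 of the 10, with a median of 0.01. Dapl1, counted among the 6 and the 10, passed the median at S1 only in Mst1KO, so its difference was in part set by the filter.

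**Figure D4:**
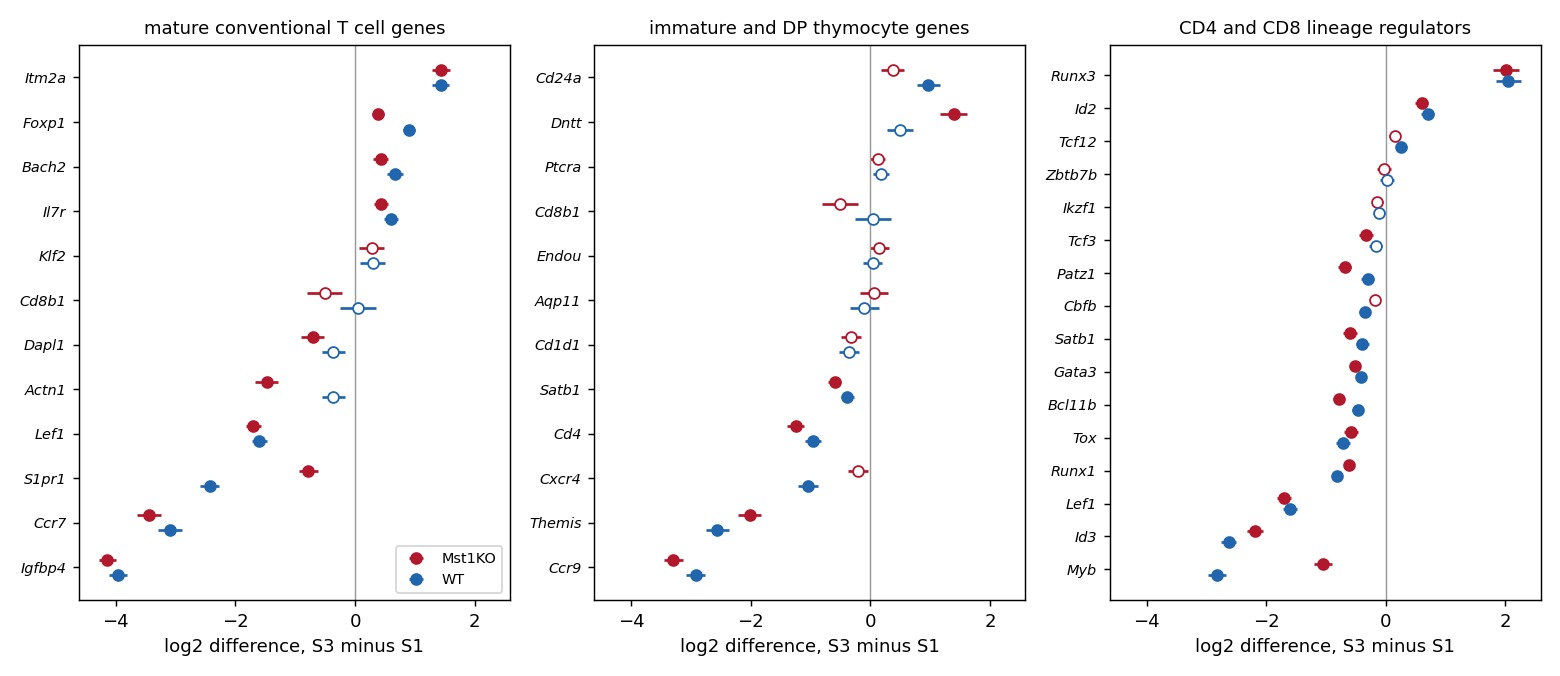
S3 minus S1 log2 difference ± SE of the tested genes in the lists of mature conventional T cell genes, immature and double-positive (DP) thymocyte genes, and CD4 and CD8 lineage regulators, Mst1KO in red above WT in blue. Filled points have an adjusted p under 0.05. Igfbp4, Ccr7, Ccr9 and Themis lie far to the left in both genotypes, while Itm2a and Runx3 lie to the right.

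Of 17 regulators of the CD4 and CD8 choice 16 were tested. From S1 to S3 in Mst1KO 10 fell and 2 rose (median -0.55), where 26.6% of all genes were called with a median of -0.009. In WT 10 fell and 3 rose (median -0.37), where 33.8% were called with a median of -0.004. Runx3, which silences Cd4 and favours CD8 in conventional thymocytes, rose by 2.01 ± 0.21 in Mst1KO (adjusted p = 2.14e-06) and 2.05 ± 0.21 in WT (adjusted p = 1.09e-06). Zbtb7b, which encodes ThPOK, the factor for the CD4 lineage, had differences of -0.03 ± 0.11 in Mst1KO and 0.02 ± 0.11 in WT and was not called (adjusted p = 0.876 and 0.92). Gata3, which acts upstream of ThPOK, fell by 0.52 ± 0.08 in Mst1KO and 0.42 ± 0.08 in WT, and Myb by 1.05 ± 0.15 in Mst1KO and 2.82 ± 0.15 in WT. At S3 Myb (1.46 ± 0.15, adjusted p = 2.88e-05), Id3 (0.66 ± 0.13, adjusted p = 0.0104) and Runx1 (0.32 ± 0.08, adjusted p = 0.0339) were higher in Mst1KO. These are 3 of the 16, beside 3.40% of all genes called. At S1 and S2 limma called 0 of the 16, with 2 and 4 at an unadjusted p under 0.05, beside 1457 and 1741 of the 13034 genes. At S3 5 of the 16 had such a p, beside 2176 genes. Zbtb7b was among these at S1, S2 and S3 without being called. Its means were 6.59 in Mst1KO S1 and 6.29 in WT S1, 6.56 in Mst1KO S2 and 6.31 in WT S2, and 6.55 in Mst1KO S3 and 6.31 in WT S3. Among the 9 measured partners of the coreceptors and CD3 chains, 1 rose and 3 fell from S1 to S3 in Mst1KO, beside 26.6% of all genes called. In WT 3 of them rose and 2 fell, beside 33.8%. Cd3e rose by 0.30 ± 0.07 in Mst1KO (adjusted p = 0.00566) and 0.51 ± 0.07 in WT (adjusted p = 4.68e-05), Cd3g was called higher in WT (0.21 ± 0.07, adjusted p = 0.0269), and Cd3d, with group means of 11.78 to 11.86, was not called. Of these 9 genes 1 was called between genotypes, at S3, where 3.40% of all genes were called. Cd5, a gauge of receptor signal strength, was higher there in Mst1KO by 0.44 ± 0.09 (adjusted p = 0.0147).

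Dntt acts together with the end-joining machinery that completes receptor rearrangement. Of 12 genes for V(D)J recombination and end joining 9 were tested, and apart from Dntt 4 fell and 0 rose from S1 to S3 in Mst1KO, and 5 fell and 0 rose in WT, beside 26.6% and 33.8% of all genes called in either direction. Hmgb2, whose protein assists the recombinase, fell by 0.82 ± 0.11 in Mst1KO and 1.01 ± 0.11 in WT, and the Ku70 gene Xrcc6 by 0.36 ± 0.10 in Mst1KO and 0.50 ± 0.10 in WT. Between the genotypes limma called 0 of the 9 at S1, S2 and S3, with 1, 0 and 3 at an unadjusted p under 0.05, Dntt at S3 among them. Around Igfbp4, 11 of 14 genes of the insulin-like growth factor pathway were tested. From S1 to S3 the receptor gene Igf2r fell by 0.90 ± 0.11 in Mst1KO and 1.02 ± 0.11 in WT, and the adaptor gene Irs2 rose by 1.39 ± 0.18 in Mst1KO and 2.07 ± 0.18 in WT. Igf1r, the receptor for the factors that Igfbp4 binds, averaged 6.90 in Mst1KO S3 and 5.26 in WT S3, a difference of 1.64 ± 0.30 (adjusted p = 0.00547). It was the 1 gene of the 11 called between the genotypes at S3, where 3.40% of all genes were called. At S1 the 1 called was the adaptor gene Irs1 (-0.66 ± 0.13, adjusted p = 0.0451), and at S2 the 1 called was Igfbp7 (-1.08 ± 0.21, adjusted p = 0.0201), both lower in Mst1KO, where all their arrays at that stage lay below the median.

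Markers of other cells were read beside these results, and their part in them was not tested. B cell markers were low: Ms4a1, Pax5 and Ebf1, 3 of the 5 measured, were below the array median on all 18 arrays, and the summed linear signal of the 5 was 89 to 107 in Mst1KO S3 and 83 to 106 in WT S3, against 86 to 94 in Mst1KO S1 and 82 to 94 in WT S1. The 12 macrophage and dendritic cell markers, with Siglech and Cd14 below the median throughout, summed to 459 to 500 in Mst1KO S1 and 418 to 532 in WT S1, to 583 to 636 in Mst1KO S2 and 460 to 558 in WT S2, and to 815 to 1087 in Mst1KO S3 and 655 to 754 in WT S3. The WT sums of S1 and S2 overlapped, and the S3 sums lay above the S1 sums in both genotypes. Any relation of these sums to Dntt was not tested. Among the 8 that were tested, 6 were called higher and 1 lower from S1 to S3 in Mst1KO and 5 higher and 1 lower in WT, beside 26.6% and 33.8% of all genes called. Lyz2 and Itgax, counted as higher, were below the median on all S1 arrays and entered the test only through S2 and S3. Between the genotypes 0 of the 8 were called at S1, and at S2 1 was, Itgax, higher in Mst1KO, beside 1.17% of all genes. At S3 1 of the 8 was called between the genotypes, the complement gene C1qb, higher in Mst1KO by 0.94 ± 0.23 (adjusted p = 0.0364). At an unadjusted p under 0.05 the limma fit held 0, 4 and 3 of the 8 at S1, S2 and S3. Of the gamma-delta T cell markers 3 were measured, and Trdc had no probe set of its own. The 3 summed to 444 to 512 in Mst1KO S1 and 420 to 594 in WT S1. Their sums were highest at S2, at 1127 to 1534 in Mst1KO and 724 to 1135 in WT. At S3 they were 652 to 691 in Mst1KO and 190 to 275 in WT, with Blk (2.39 ± 0.30, adjusted p = 0.00018) and Cd163l1 (1.03 ± 0.12, adjusted p = 7.88e-05) higher in Mst1KO. Cd163l1 was also called higher in Mst1KO at S2, as 1 of the 3. All cells were sorted with the TCRb antibody, and which cells carried these markers was not tested. Thymic epithelial markers, with Foxn1 and Psmb11 below the median on all arrays, summed to 155 to 178 in Mst1KO S3 and 178 to 187 in WT S3. Of the 6 regulatory T cell markers Ctla4 was below the median throughout, and limma called 0 of the 3 tested between the genotypes at S1, S2 and S3, with 1, 2 and 1 at an unadjusted p under 0.05.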

How the data were processed

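Gene expression was measured on 18 Affymetrix MoGene-2_0 arrays, 3 for each of the 6 groups. Per the labels' protocols, RNA was extracted with RNeasy Micro columns and amplified with a NuGEN WTA kit. The authors deposited log2 values for each probe set. The submitters' processing notes name RMA and Affymetrix Expression Console 1.1. Since RMA already subtracts background, equalizes the arrays and summarizes probes, no further normalization was applied.

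The table holds 41345 probe sets. A single gene symbol is given for 23521 of them, several for 1814 and no symbol for 16010. Those with 1 symbol and a value above their array's median on at least 3 arrays were kept (13702), and the brightest stood for each of 13034 genes. limma 3.58.1 in R 4.3.3 fitted 6 group means to all 18 arrays, and p was adjusted over all genes (Benjamini-Hochberg) in each of 11 comparisons, with calls at an adjusted p under 0.05. The fit was tested on simulated data. The members, the gene lists and the naming rule (all members, the 3 genes most correlated with each, the label checks, and any list gene with its values) were chosen with earlier results of these data known. The genes ranked above Cd8b1 on 1 array were named after their values were seen. Replicate numbers did not pair the samples: deviations of same-numbered arrays correlated at -0.05 to 0.21, and in no comparison did every pair pass 0.1. Alternatives changed the filter (none, or the 75th percentile), the normalization (median centring, or quantile again), the fit (trend and robust, array weights, replicate block, or only the groups compared) and the probe sets (their mean), and left out each array once. Gene positions and promoters are RefSeq's for GRCm38.p6. Figures used matplotlib 3.10.9 in Python 3.11.15.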

Additional observations from a re-analysis of the deposited data

How the results depend on the processing

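The number of members called was recomputed 177 times under the alternatives, and in 171 of them it stayed within 1.5 times the reported count. The reported count was 0 for each genotype comparison and each genotype difference in a stage change, and counts of 0 that stayed 0 are among the 171. So are counts of 3 that became 2. For Mst1KO minus WT at S3 the number called was 1 with the trend and robust fit and 1 with the replicate block, against 0 as reported. In both cases the member was Dntt, at 0.77, with adjusted p of 0.0493 and 0.0436 against 0.0684 as reported, and leaving out each array gave differences of 0.62 to 0.90 and adjusted p of 0.0722 to 0.222. The replicate block changed no other member's call. For S3 minus S2 in Mst1KO the reported count of 4 became 2 with the filter at the 75th percentile, where only 3 members were tested and Dntt and Cd24a were left out, and it was 2 to 4 when each array was left out. None of the called member differences turned its direction, nor did the genotype differences of Cd8b1 at S1 and Dntt at S3. The direction of the other differences was not followed. Igfbp4 was called in all 6 stage comparisons under every alternative listed.

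Counts of all genes called moved more than those of the members. With only the groups compared they were 5, 4 and 184 for Mst1KO minus WT at S1, S2 and S3, against 43, 152 and 443 as reported and 128, 248 and 563 with the trend and robust fit. With only the groups compared they were 195 and 2037 for S2 minus S1 and S3 minus S2 in WT, against 501 and 3073. For S2 minus S1 in Mst1KO the count was 870, and leaving out an array brought it to as few as 530. The interactions had 2 genes for the S1 to S2 change (2 to 6 under the alternatives) and 48 for the S2 to S3 change (15 to 93). With 3 arrays a group and Cd8a, Dntt and Cd24a near the array medians, small differences in these genes were not detectable.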
